A study of Homo sapiens with 6 samples.

Results

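ALYREF and 9 other genes of mRNA export were followed in an immortalised line of human chondrocytes, TC28a2, transfected with a control vector (3 libraries) or with an FAP overexpression vector (3 libraries). FAP (fibroblast activation protein) is a serine protease of the cell surface. RNA was taken 48 hours after transfection and sequenced by DRUG-seq, a low-cost multiplexed form of RNA sequencing. The 10 genes were selected by name from the 28395 Entrez gene IDs of the count table: ALYREF, THOC1, THOC2, THOC3, THOC5, THOC6, THOC7, DDX39B, CHTOP and NXF1. ALYREF was chosen because it was called higher in the FAP libraries of these data, so its difference between groups is given below as a description and not as a test. The others were listed beside it by function. All 10 had a row in the table, and 9 passed the filter on low counts. The 1 that did not was DDX39B.

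As background, TREX (transcription and export) is the complex that couples the making and processing of mRNA in the nucleus to its export. The THO core, built from THOC proteins, holds the RNA helicase DDX39B (also called UAP56), which loads adaptor proteins such as ALYREF and CHTOP onto the spliced mRNA. The adaptors hand the mRNA to the export receptor NXF1, which takes it through the nuclear pore. ALYREF binds RNA directly and also binds mRNA carrying 5-methylcytosine.

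Library totals ran from 5736056 to 13839743 counts, with the smallest library of each group in replicate 1. FAP itself was at a mean of 0.532 CPM with the control vector and 266 CPM with the FAP vector. The 6 libraries thus matched their labels at the targeted gene. FAP replicates 1, 2 and 3 had FAP at 223, 225 and 351 CPM, so replicate 3 had the most. Levels here are CPM, gene counts relative to library size after TMM scaling, and differences are log2 fold changes of FAP minus control from edgeR's quasi-likelihood fit across all 13373 tested genes. Whether the replicates were separate cultures is not in the labels, and the p-values then measure only how these libraries vary, which may be technical. In bulk RNA, fewer cells with a transcript and less transcript per cell cannot be told apart. Of 12 chondrocyte markers SOX9 alone passed the filter, and the other 11, ACAN and COL2A1 among them, summed to 3.88 to 4.20 CPM in control and 2.71 to 3.56 CPM in FAP libraries. SOX9 was at 28.8 ± 5.31 and 37.4 ± 5.66 CPM (log2 fold change 0.36, SE 0.15, adjusted p = 0.416 with edgeR's quasi-likelihood test, n = 3 each), with overlapping groups. Of 9 markers of other cell types, CDH5 had no count, and their sum was 1.10 to 2.62 CPM in control and 4.31 to 5.43 CPM in FAP libraries. The higher sum in FAP libraries came mostly from PECAM1 (0.444 against 1.70 CPM) and CD14 (0.767 against 1.35 CPM), and the part of these marker differences in the values below was not tested.

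ALYREF (Entrez 10189, chromosome 17, 81887835 to 81891587 in GRCh38.p14, minus strand) was at 189, 190 and 194 CPM in control replicates 1, 2 and 3, and at 289, 315 and 236 CPM in FAP replicates 1, 2 and 3. All 3 FAP libraries lay above all 3 controls. The controls were within 5.28 CPM of each other, while the FAP libraries spread over 79.0 CPM, with replicate 3 the lowest. FAP itself was highest in that replicate. On the log2 scale the change was 0.55 (SE 0.11), or 1.47-fold. ALYREF was thereby 1 of the 30 genes called at an adjusted p under 0.05 (0.224% of those tested), 13 of which were higher (0.0972%) and 17 lower. Scaling by library totals instead gave 13 higher and 6 lower genes, and the log2 fold change of ALYREF was 0.60. This is the contrast that chose the gene. Leaving out FAP replicate 2 gave a log2 fold change of 0.46, and leaving out FAP replicate 3 gave 0.66. The call of ALYREF was lost without FAP replicate 2 or without any 1 of the controls, and it was kept without FAP replicate 1 or 3.

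**Figure D1:**
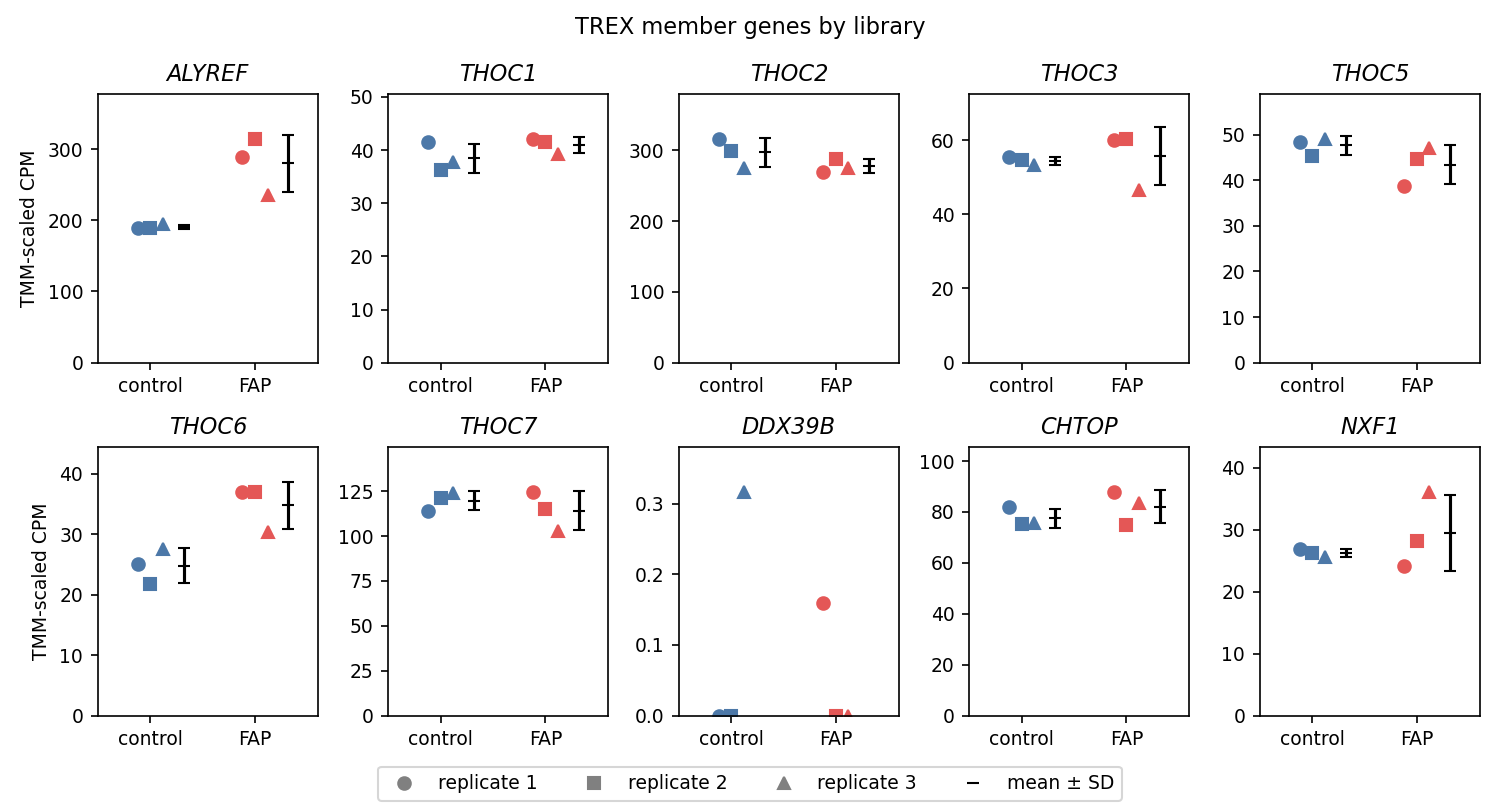
TMM-scaled CPM (vertical axis, from 0, a scale of its own in each panel) of the 10 genes in the 3 control and 3 FAP libraries. Points are libraries, with the marker shape giving the replicate number, and black bars are mean ± SD (not drawn for DDX39B). ALYREF and THOC6 are the panels in which every FAP point lies above every control point.

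ALYREF shares its start region with ANAPC11 (Entrez 51529, chromosome 17, 81890790 to 81900533, plus strand), the RING subunit of the anaphase-promoting complex, a ubiquitin ligase of mitosis. Their annotated spans overlap by 798 bases, on opposite strands. In GENCODE release 29 (GRCh38) the exons of the pair coincide over 62 bases only, where an alternative first exon of ANAPC11 lies inside an internal exon of ALYREF. With all annotated transcripts merged, these are 3.94% of the 1574 exon bases of ALYREF. Of the merged bases, 1094 lie between the overlap and the 3′ end of ALYREF. The longest single ALYREF transcript has 1088 bases in all, so neither value describes a single mRNA. DRUG-seq as generally described primes at the poly(A) tail, but where the reads of these libraries fell within genes was not measured here. RefSeq starts of ANAPC11 lie at 81890790, inside ALYREF, and at 81891713, 81891723 and 81891927, on the far side of the ALYREF start. In GENCODE release 29 the nearest ANAPC11 exon on the far side begins closer, at 81891647. The stretch between the ALYREF start and this GENCODE exon, at chr17:81891588-81891646, holds 59 bases. It is shown because both genes are transcribed away from it.
ALYREF to ANAPC11: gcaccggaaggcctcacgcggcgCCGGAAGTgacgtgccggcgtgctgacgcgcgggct

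The sequence is from RefSeq (GRCh38.p14), on the minus strand, and runs towards the ALYREF start. Capitals mark CCGGAAGT, a core that transcription factors of the ETS family are known to bind, whose first base lies 36 bases before the start. The motif was picked after this stretch had been read. It was searched on both strands in RefSeq windows from 250 bases before to 50 bases after each start. It stood in at least 1 window of 3 of the 9 members with a window (THOC7 had none). ALYREF is among these 3, and its match was fixed by the choice of the motif. Of 15843 protein-coding genes, 6.97% had the motif in at least 1 window. The other members with it were DDX39B (chr6:31541999-31542028) and THOC5 (chr22:29553739-29553768, where it lies on the opposite strand), shown for comparison, each on the strand of its gene.
DDX39B: gaagcctgcaaCCGGAAGTgaaggcagatt
THOC5: gccccttccttACTTCCGGttctctatggt

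A match of these letters describes the window and is not evidence of binding. Of the 3 genes with the motif, ALYREF was higher in all FAP libraries, THOC5 was not called, and DDX39B had too few counts to be tested.

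**Figure D2:**
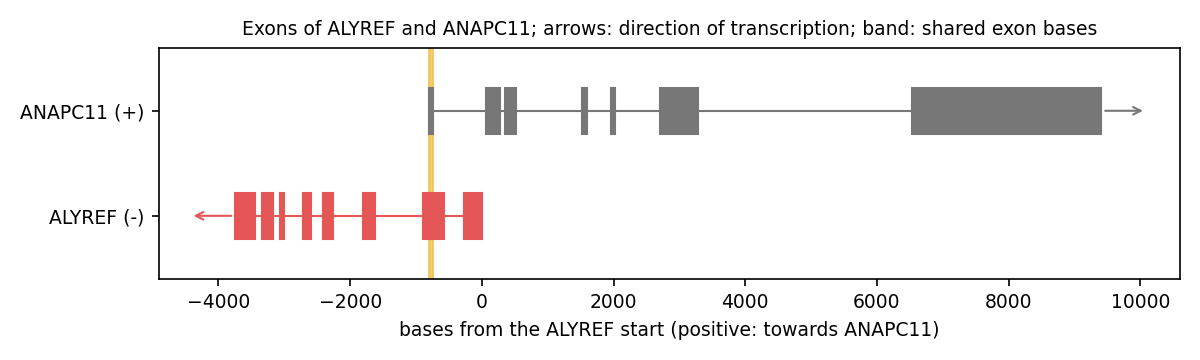
Exons (boxes) of ALYREF, on the minus strand, and ANAPC11, on the plus strand, in GENCODE release 29, against distance in bases from the ALYREF start. All annotated transcripts of a gene are merged, arrows give the direction of transcription, and the band marks the 62 exon bases that the genes share.

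ANAPC11 did not rise with ALYREF. Its mean was 171 ± 15.5 CPM with the FAP vector, against 196 ± 4.80 CPM with the control vector (SD, n = 3 each), and every FAP library lay below every control. Its log2 fold change was -0.20 (95% confidence interval -0.41 to 0.0036) and did not pass (edgeR's quasi-likelihood test, adjusted p = 0.512). Of all tested genes, 7.99% had every FAP library below every control. The ratio of ALYREF to ANAPC11 counts, which needs no scaling between libraries, was 0.943, 0.962 and 1.02 in control replicates 1, 2 and 3. It was 1.565, 1.819 and 1.528 in FAP replicates 1, 2 and 3. The counts of the genes were thus nearly equal in every control, and ALYREF exceeded ANAPC11 in every FAP library. In FAP replicate 3 ALYREF was at 236 CPM, its lowest FAP level, and ANAPC11 at 154 CPM, its lowest level, so both enter that ratio. The ratio also holds the ALYREF counts that chose the gene. With the counts of both summed into 1 feature, the log2 fold change was 0.22 (SE 0.10) and the feature was not called. Reads of the shared exon bases cannot be assigned without strand, and whether the counting used it is not known here.

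ANAPC11 is 1 of 14 genes of the anaphase-promoting complex that were looked up. Of these 13 were tested, 8 with a positive and 5 with a negative log2 fold change, and none was called (median 0.05). The share called over all tested genes was 0.224%. The member with the smallest p was ANAPC2, the cullin subunit, at 15.1 ± 1.27 and 19.6 ± 1.48 CPM (log2 fold change 0.38, SE 0.15, adjusted p = 0.409 with edgeR's quasi-likelihood test, n = 3 each).

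**Figure D3:**
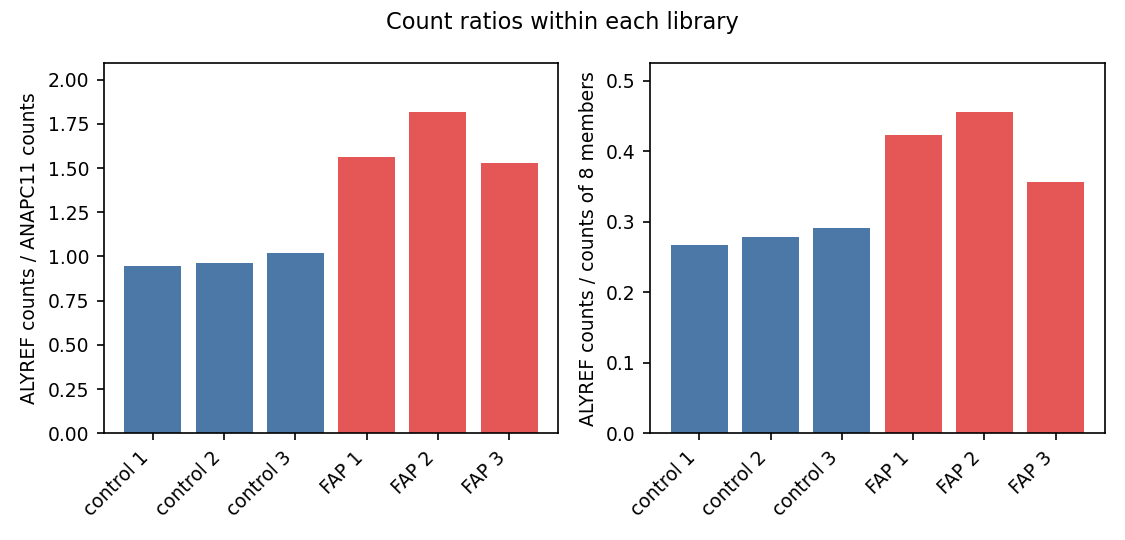
Ratio of ALYREF counts to ANAPC11 counts (left) and to the summed counts of the 8 other tested members (right) in each library, with bars from 0. The 3 FAP libraries are above the 3 controls in both panels, at 1.53 to 1.82 against 0.943 to 1.02 and at 0.356 to 0.456 against 0.266 to 0.290. Both ratios hold the ALYREF counts that chose the gene.

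Among the subunits of the THO core, THOC6 had the largest difference. THOC6 (Entrez 79228, chromosome 16, 3024035 to 3027750) encodes a WD-repeat subunit that helps THO assemble into a larger oligomer. It was at 25.0, 21.9 and 27.5 CPM in control replicates 1, 2 and 3 and at 37.0, 37.0 and 30.3 CPM in FAP replicates 1, 2 and 3. The groups did not overlap, and the gap was smallest between FAP replicate 3 and control replicate 3. THOC6 thus had a log2 fold change of 0.48 (SE 0.13, 95% confidence interval 0.20 to 0.76), or 1.39-fold. It did not pass over all genes (edgeR's quasi-likelihood test, unadjusted p = 0.00196, adjusted p = 0.196, rank 133 by p). In the fit without FAP replicate 3 it passed (log2 fold change 0.57, adjusted p = 0.0157), where 248 of 13305 genes were called (1.86%). Over the libraries left out in turn its log2 fold change lay between 0.40 and 0.57, and over all alternatives its adjusted p lay between 0.0157 and 0.683. Of all tested genes, 7.96% had every FAP library above every control, and of the 8 tested members other than ALYREF, THOC6 was the 1 that did. At its 5′ end THOC6 shares 260 of its 1860 exon bases, all transcripts merged, with HCFC1R1 on the other strand. HCFC1R1 was at 68.8 ± 6.94 and 72.8 ± 9.38 CPM (log2 fold change 0.08).

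The other 5 THO genes were not called, and their groups overlapped. THOC2, the large scaffold subunit of THO, was at 316, 299 and 276 CPM in the controls and 269, 288 and 275 CPM in the FAP libraries. Its log2 fold change was -0.10 (95% confidence interval -0.30 to 0.10). THOC1, the subunit also known as HPR1, was at 38.5 ± 2.71 and 40.9 ± 1.54 CPM, a log2 fold change of 0.09 (-0.15 to 0.33). THOC1 shares 110 exon bases with the convergent gene USP14 at its 3′ end, so these reads would be hard to place without strand; USP14 had a log2 fold change of 0.13.

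THOC5 and THOC7 are metazoan subunits that pair as a coiled coil in THO. THOC5 was at 48.4, 45.3 and 49.1 CPM in controls and 38.6, 44.5 and 47.0 CPM in FAP libraries, with FAP replicates 1 and 2 below every control (log2 fold change -0.13, 95% confidence interval -0.36 to 0.11). THOC7 was at 120 ± 5.19 and 114 ± 10.8 CPM (-0.07, -0.28 to 0.14), with FAP replicate 3 the lowest library at 103 CPM. THOC3, another WD-repeat subunit, was at 54.4 ± 1.07 and 55.6 ± 7.87 CPM (0.03, -0.22 to 0.27). FAP replicates 1 and 2 had THOC3 at 60.0 and 60.3 CPM, above every control, and FAP replicate 3 at 46.5 CPM, below every control. Leaving out FAP replicate 3 gave THOC3 a log2 fold change of 0.15 and leaving out FAP replicate 2 gave -0.04, so its sign depended on the library left out. The adjusted p-values of these 5 genes lay between 0.754 and 0.962 with edgeR's quasi-likelihood test, and their 95% confidence intervals together ran from -0.36 to 0.33 on the log2 scale.

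**Figure D4:**
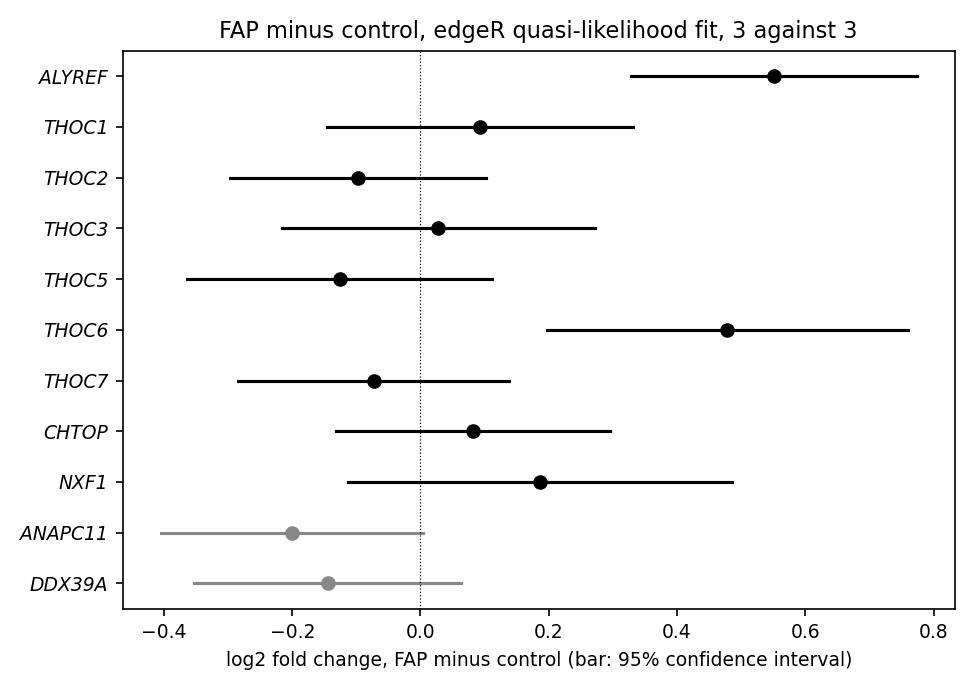
Log2 fold change of FAP minus control (horizontal axis) with 95% confidence intervals, from the edgeR fit across all genes, 3 libraries against 3, for the 9 tested members (black) and for ANAPC11 and DDX39A (grey). The intervals of ALYREF and THOC6 lie above 0. The interval of ALYREF describes the contrast by which it was chosen.

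The helicase DDX39B (Entrez 7919, chromosome 6, 31530226 to 31542003), which binds ALYREF and THO, had next to no counts. It had 0, 0 and 4 counts in the controls and 1, 0 and 0 in the FAP libraries. A count of 0 allowed a level of up to 0.212 to 0.548 CPM, depending on the library, for counting error only, and no fold was computed. The gene lies wholly within the span of a readthrough gene on the same strand, ATP6V1G2-DDX39B, which was listed at 0 in every library. With all annotated transcripts merged, DDX39B shares 2079 of its 7007 exon bases (29.7%) with the readthrough gene, so most are not shared. How the counting treated reads in exons of both is not given in the sources used here. Among nearby genes, chosen after their values were seen, PRRC2A, BAG6 and CSNK2B had at least 567 counts in every library, NFKBIL1 had 15 to 52, and ATP6V1G2, the other part of the readthrough gene, had at most 4. Within 1000 kb of DDX39B, 33% of 94 protein-coding genes had fewer than 10 counts in every library, against 31.9% of the 18961 protein-coding genes that are in no readthrough gene. Of the 214 that are part of a readthrough gene, 48.6% did, with a median of 11 for the highest count of a gene against 92. These sets were not matched for expression. The readthrough set holds genes with no count, such as INS, and well-counted genes, such as NME1 with 6155 in its highest library. The part of the overlap in the near-absence of DDX39B counts was not tested, and the table cannot be read as absence of the helicase's mRNA.

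DDX39A, the close paralog of DDX39B that can also bind ALYREF, was well counted. It was at 174, 156 and 153 CPM in the controls and 152, 152 and 133 CPM in the FAP libraries. The FAP libraries were below every control, by a small gap, as was the case for 7.99% of all tested genes. DDX39A had a log2 fold change of -0.14 (SE 0.10), which did not pass (edgeR's quasi-likelihood test, adjusted p = 0.661). Counts of the paralogs could mix where reads align to both, and the treatment of such reads is not given in the sources used here.

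CHTOP and NXF1, which act with and after ALYREF, were not called. CHTOP, a further adaptor that binds DDX39B and NXF1, was at 81.8, 75.3 and 75.6 CPM in the controls and 87.9, 75.0 and 83.4 CPM in the FAP libraries. The log2 fold change was 0.08 (95% confidence interval -0.13 to 0.30). The counted genes that overlap CHTOP and THOC7 without shared exon bases, S100A13 and ATXN7, had log2 fold changes of -0.07 and 0.04. NXF1, the export receptor for bulk mRNA, was at 26.9, 26.2 and 25.6 CPM in the controls and 24.1, 28.2 and 36.1 CPM in the FAP libraries. FAP replicate 3, the lowest FAP library for ALYREF, was the highest for NXF1, and FAP replicate 1 lay below every control. The log2 fold change of NXF1 was 0.19 (-0.11 to 0.49), and 0.01 without FAP replicate 3. Adjusted p-values were 0.832 for CHTOP and 0.702 for NXF1 with edgeR's quasi-likelihood test.

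Of the 8 tested members other than ALYREF, 5 had positive and 3 negative log2 fold changes, and none was called. Over all 13373 tested genes, 0.224% were called and 6776 had a positive log2 fold change, so these counts say little about the 8. THOC6 was the 1 of these 8 at an unadjusted p under 0.05, as were 9.91% of all tested genes. The median over the 8 was 0.05, against 0.0031 over all tested genes. Summed, the 8 were at 709, 680 and 669 CPM in the controls and 683, 690 and 661 CPM in the FAP libraries, so the groups overlapped. THOC2 and THOC7 made up most of this sum. ALYREF counts came to 0.278 ± 0.0120 of the sum in controls and 0.412 ± 0.0508 in FAP libraries (SD, n = 3 each). The FAP libraries ran from 0.356 in replicate 3 to 0.456 in replicate 2. This ratio too holds the ALYREF counts that chose the gene.

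Per kilobase of the longest GENCODE transcript, ALYREF had the highest level of the members in control cells, at 175 ± 2.64 CPM per kb. THOC7 followed at 121 ± 5.25 CPM per kb and THOC2 at 53.0 ± 3.64 CPM per kb. CHTOP and THOC3 did not differ beyond their spread, at 30.4 ± 1.45 and 30.3 ± 0.595 CPM per kb. THOC6, THOC1 and THOC5 were at 17.5 ± 2.01, 13.8 ± 0.971 and 10.02 ± 0.419 CPM per kb, and NXF1 was lowest of the tested members at 6.35 ± 0.156 CPM per kb (SD, n = 3 each). The scale divides by full transcript length, which overstates short genes if reads come from 3′ ends only. The order depends on this division, since in CPM not divided by length THOC2 was the highest member in controls, at 297 ± 20.4 CPM against 191 ± 2.87 CPM for ALYREF.

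The genes whose level was most like that of ALYREF over the 6 libraries were PCBP2, CIP2A, ALDOA, ZCCHC24 and C18orf54. Their Pearson correlations with ALYREF (log2 CPM) were 0.99, 0.98, 0.97, 0.97 and 0.97. These came from 8652 genes of at least 10 CPM, of which 16 reached 0.95, and the points share the difference between groups that chose ALYREF. CIP2A, which was not called, had the same order of libraries as ALYREF (Spearman's rho 1), and so did PCBP2. PCBP2, a poly(C)-binding protein of mRNA, was itself a called gene, at 145 ± 4.06 and 205 ± 25.8 CPM. Its call was lost with limma-voom (adjusted p = 0.054), and in edgeR's quasi-likelihood test without any 1 of the controls or without FAP replicate 2 (adjusted p = 0.232 to 0.343). Among the members, THOC6 was closest to ALYREF (r = 0.94), THOC1 followed (0.65), and THOC5 and THOC2 ran opposite to it (-0.69 and -0.50). With group means removed, the genes most like ALYREF were others: CDC42EP2, YARS2, ZNF271P, RBM3 and CARM1, at 0.988 to 0.995. On this measure 52 of the 8652 genes reached 0.95. CDC42EP2 and CARM1 were not called, with every FAP library below every control (log2 fold changes -0.25 and -0.23). Such a separation was found for 7.99% of all tested genes. YARS2, ZNF271P and RBM3 had overlapping groups. CARM1 encodes an arginine methyltransferase and RBM3 an RNA-binding protein raised by cold. Within groups THOC3 and THOC6 followed ALYREF (r = 0.94 and 0.72), and NXF1 ran opposite (-0.78). ALYREF varied little among the controls, so the within-group values rest mostly on the 3 FAP libraries and are descriptions only.

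Other genes of the export route were taken from lists written for this report. Of all 13373 tested genes, 0.224% were called and 6776 had a positive log2 fold change. With so low a share, a short list without a call says little about that list. Of 15 tested further TREX subunits and adaptors, 5 had positive and 10 negative log2 fold changes (median -0.06), and none was called. ZC3H11A, a zinc finger protein of TREX, had the smallest p, at 91.6 ± 6.68 and 109 ± 6.38 CPM (log2 fold change 0.25, adjusted p = 0.405 with edgeR's quasi-likelihood test, n = 3 each). NXT2, a cofactor of NXF1, was at 10.4 ± 1.42 and 12.4 ± 0.538 CPM (log2 fold change 0.27, SE 0.18, adjusted p = 0.652 with the same test). Every FAP library had NXT2 above every control, as was the case for 7.96% of all tested genes. NXT1, the other cofactor that pairs with NXF1, had a log2 fold change of -0.10, and SARNP and POLDIP3, which join TREX with DDX39B, had -0.20 and -0.06. The adaptors SRSF3 and SRSF7, serine/arginine-rich splicing factors that also recruit NXF1, had -0.06 and -0.03.

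In TREX-2, which ties transcribed genes to the nuclear pore, 1 of 6 genes was positive and 5 negative (median -0.10), and none was called. SEM1, a small subunit that the proteasome shares, was at 371 ± 15.7 and 321 ± 29.1 CPM (log2 fold change -0.21, adjusted p = 0.499 with edgeR's quasi-likelihood test, n = 3 each), and the centrin gene CETN3 had -0.14 (adjusted p = 0.745). The cap-binding and exon junction complexes, which mark the mRNA to which TREX is recruited, had 7 positive and 6 negative of 13 (median 0.0049), and none was called. MAGOHB, which encodes a protein nearly identical to MAGOH, was at 135 ± 12.1 and 97.1 ± 19.3 CPM (log2 fold change -0.47, SE 0.12, adjusted p = 0.165 with the same test). Every FAP library had MAGOHB below every control, as was the case for 7.99% of all tested genes. MAGOH had the opposite sign (0.33, SE 0.15), and the pair may share reads. MAGOHB passed with DESeq2, with no low-count filter and without FAP replicate 3. RBM8A, their partner in the exon junction core, had -0.21.

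Of 14 nuclear pore and remodelling genes, 7 were positive and 7 negative (median 0.03), and none was called. NUP155, a scaffold nucleoporin, was at 0.36 (adjusted p = 0.296 with edgeR's quasi-likelihood test) and NUP214, on the cytoplasmic face, at -0.27 (adjusted p = 0.445) as log2 fold changes. Of 12 tested genes of other export receptors and the RAN cycle, 4 were positive and 8 negative (median -0.05), and none was called. XPO1, the exportin for proteins with a nuclear export signal, had 0.15 and XPO5, for microRNA precursors, -0.15. RNA methylation factors had 4 positive and 5 negative of 9 (median -0.03), and none was called. NSUN2, which writes 5-methylcytosine that ALYREF binds, was at 207 ± 9.64 and 190 ± 6.45 CPM (log2 fold change -0.12, adjusted p = 0.693). WTAP, a regulatory subunit of the adenosine methyltransferase, had 0.27 (adjusted p = 0.358) and METTL3, its catalytic subunit, -0.41 (SE 0.30, adjusted p = 0.678), at 7.86 ± 3.41 and 5.63 ± 1.45 CPM, with overlapping groups. Of 11 nuclear decay and retention genes, 5 were positive and 6 negative (median -0.0014), and none was called. ZFC3H1, which holds RNA back in the nucleus, had 0.25 (adjusted p = 0.608), and EXOSC3, an exosome subunit, -0.13 (adjusted p = 0.720).

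**Figure D5:**
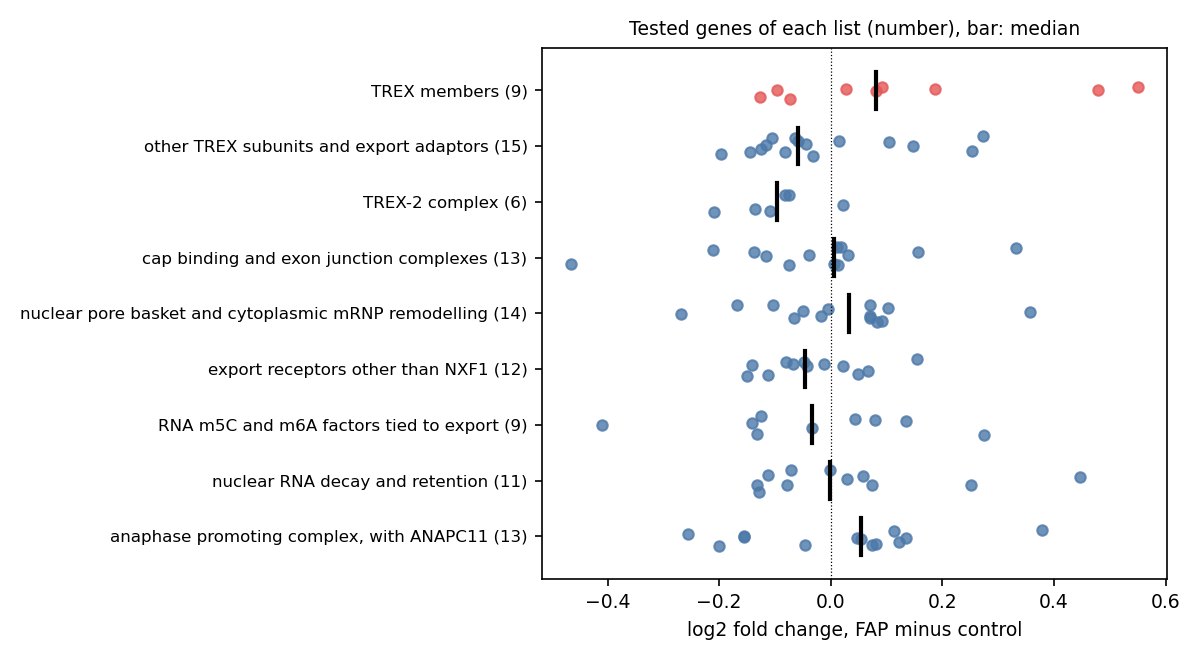
Log2 fold change of FAP minus control (horizontal axis) for each tested gene of the member list, of 7 other lists of mRNA export and nuclear RNA genes, and of the anaphase-promoting complex. Each point is a gene, black bars are medians, and the number of tested genes stands beside each list. The medians lie between -0.10 and 0.08, and ALYREF and THOC6 are the 2 rightmost points of all lists.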

How the data were processed

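The authors deposited whole-number read counts per Entrez gene ID for the 6 libraries, not normalized, per the file headers and values. HISAT2, featureCounts, Subread and the GRCh38 build are named in the submitters' processing notes. Tool versions, strand, multiple alignments and molecular identifiers: not given in the sources used here. Groups came from the labels. Of 28395 IDs, 27745 matched a symbol and position in RefSeq's GRCh38.p14 gene table. Exons came from GENCODE release 29.

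The test was edgeR 4.0.16 (R 4.3.3): filterByExpr by group (minimum count 10, minimum total 15), TMM scaling and the two-sided quasi-likelihood test of FAP minus control without covariates, with Benjamini-Hochberg adjustment over 13373 genes and a threshold of 0.05. Standard errors are the log2 fold change divided by the square root of F. Alternatives used DESeq2 1.42.0, limma 3.58.1, other scaling and filters, a replicate block, and fits without each library. Correlations used log2 CPM with a prior count of 2. The scripts were tested on simulated data.

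The members and lists were chosen with earlier results of these data known. Besides members, the rule names counted genes that overlap a member, DDX39A, the 2 genes of smallest p in each list (none of these lists had a called gene) and the 5 genes most like ALYREF by each measure; others were named for their role or after their values were seen. Overlapping genes with at most 5 counts in any library are not described, apart from the readthrough gene. Intervals cover the spread between libraries, and limits of a 0 counting error only. Figures were drawn with matplotlib 3.10.9.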

Additional observations from a re-analysis of the deposited data

How the results depend on the processing

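With 3 libraries a group, members not called had intervals that allow changes in either direction, apart from THOC6. Genes called numbered 30 in the fit reported, 19 with library totals, 98 with DESeq2 and 152 with no low-count filter, and ran from 3 to 248 over the libraries left out in turn (4, 7 and 3 without control replicates 1, 2 and 3, 38, 6 and 248 without FAP replicates 1, 2 and 3). The log2 fold change of ALYREF kept its sign throughout and ran from 0.46 to 0.66 over the libraries left out, with the call lost in 4 of these 6 fits (adjusted p between 0.232 and 0.308 in edgeR's quasi-likelihood test). Summed with ANAPC11 it was 0.22 and not called, a lower value by construction. Under the other 9 alternatives it was called, with 0.54 to 0.60. Members other than ALYREF called numbered 0, and ran from 0 to 1 over the libraries left out. The 1 was THOC6 without FAP replicate 3. At an adjusted p under 0.1 the count was 0 too. ANAPC11 stayed negative and uncalled, from -0.26 to -0.13 over the libraries left out. Signs changed for genes near 0 only: over the libraries left out THOC3 ran from -0.042 to 0.15, ATXN7 from -0.12 to 0.23, S100A13 from -0.29 to 0.17, RBM3 from -0.016 to 0.13 and ZNF271P from -0.14 to 0.068, and ZNF271P was 0.0095 with library totals. The cause was not tested.

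No pairing of the libraries by replicate number was visible across the tested genes. Deviations of control and FAP libraries with the same number correlated at -0.0039, 0.020 and -0.0041, and not every library correlated best with its own number. Whether libraries of the same number were prepared together is not in the labels. With the replicate block 44 genes were called and the log2 fold change of ALYREF was 0.54.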
